A study of Mus musculus with 5 samples.

Results

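Acetylation of lysine 27 of histone H3 (H3K27ac) was compared between normal neural stem cells (NSC) and brain tumour stem cells (BTSC) of the mouse. The comparison takes the H3K27ac libraries of both cultures, which are 2 of the 5 samples of a series that also profiled the tagged nuclear receptor TLX in each culture and holds a control without antibody. They hold 62863 of the 71757 called peaks of the series, 31266 in NSC and 31597 in BTSC. Per the labels' protocols the NSC are primary cells, and neither H3K27ac culture was transduced; strain, age, genotype and the origin of the tumour cells are not stated in the labels. Each group is 1 library, so no value below has a replicate error and no test was made between cultures. Read numbers are unknown, and a peak missing from a list was not detectable at that library's depth. Covered base pairs follow from the caller as well as from the chromatin.

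H3K27ac is written by the acetyltransferases p300 and CBP and marks active promoters and active enhancers. Wide continuous domains of it often lie over genes that define a cell's identity, such as Sox2 in neural stem cells. Tumour stem cells of the brain share many regulators with normal neural stem cells, among them Sox2, Egfr and the nuclear factor I family, which in normal brain accompanies the change from making neurons to making glia.

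Both lists carried the mark at neural stem cell genes. The 10 defining markers checked (Sox2, Nes, Vim, Fabp7, Slc1a3, Msi1, Hes5, Pax6, Sox1 and Sox9) all had covered bp nearby, from 6125 bp upwards in NSC and from 7324 bp upwards in BTSC, and 8 of 10 had a peak within 1 kb of a start in both lists. The markers' summed covered length was 161246 bp in NSC and 160905 bp in BTSC. In a longer list of 18 genes, Fut4 was at 0 bp in both lists and Prom1 had 1122 bp in NSC and 454 bp in BTSC. Of 7 defining microglia markers 0 had a peak at a start, and Ptprc, Csf1r, Itgam and Cx3cr1 were at 0 bp in both lists. The 7 together had 8657 bp nearby in NSC and 10152 bp in BTSC, with Aif1 at 4510 and 6277 bp. Cd68, a lysosomal protein in the longer microglia list, had a start peak in both lists. Defining pericyte and fibroblast markers had a start peak at 0 of 8, with Pdgfrb, Dcn, Lum, Col1a2 and Col3a1 at 0 bp. The 8 together had 9198 bp in NSC and 5484 bp in BTSC. In the longer list Foxc1 had a start peak in both lists, Thy1 in NSC and Tbx18 in BTSC. Of the endothelial markers Flt1 alone had a start peak, in NSC. Pecam1 had 10072 bp nearby in NSC and 5568 bp in BTSC, and Tek 2546 and 0 bp. Pecam1 in NSC was thus above the lowest stem cell marker. Both cultures also had H3K27ac at Olig1, Olig2, Sox10 and Cspg4 of the oligodendrocyte lineage. A share of more differentiated cells in a culture and a change within its cells cannot be told apart from these lists.

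The sequences before the starts of 8 genes are printed here because their H3K27ac carries the comparison: 5 had a peak at the start in NSC only, 2 in BTSC only, and Egfr had one in both lists with a wider stretch in BTSC. Each run is the 250 bases upstream of a RefSeq start in GRCm38.p6 (the assembly of mm10), 5′ to 3′ on the gene's strand. Capitals mark 4 motifs on either strand: the box CCAAT, the SP1 box GGGCGG, the box TATAAA and the ETS factor core CCGGAAG. Matches of the SP1 box can overlap each other. Six3, Nkx2-2, Rab3b and Egfr follow from the rule for named genes, and the other 4 were chosen after their values were seen.
Six3, NSC only, chr17:85620584-85620833, plus strand: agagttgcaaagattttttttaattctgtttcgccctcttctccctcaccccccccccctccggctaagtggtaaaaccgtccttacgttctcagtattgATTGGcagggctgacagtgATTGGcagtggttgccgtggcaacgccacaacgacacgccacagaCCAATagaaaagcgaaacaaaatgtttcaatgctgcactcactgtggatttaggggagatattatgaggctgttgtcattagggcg
Nkx2-2, NSC only, chr2:147186403-147186652, minus strand: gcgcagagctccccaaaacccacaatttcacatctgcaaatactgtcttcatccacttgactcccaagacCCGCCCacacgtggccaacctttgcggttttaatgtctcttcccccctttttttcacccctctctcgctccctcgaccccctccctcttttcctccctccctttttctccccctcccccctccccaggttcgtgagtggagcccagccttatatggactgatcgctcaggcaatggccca
Rab3b, NSC only, chr4:108878820-108879069, plus strand: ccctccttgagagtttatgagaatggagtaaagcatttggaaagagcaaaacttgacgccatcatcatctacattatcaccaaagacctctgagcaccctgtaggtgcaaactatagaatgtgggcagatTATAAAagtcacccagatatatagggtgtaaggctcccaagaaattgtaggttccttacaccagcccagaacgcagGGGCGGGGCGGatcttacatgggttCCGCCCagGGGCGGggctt
Gsx1, NSC only, chr5:147188446-147188695, plus strand: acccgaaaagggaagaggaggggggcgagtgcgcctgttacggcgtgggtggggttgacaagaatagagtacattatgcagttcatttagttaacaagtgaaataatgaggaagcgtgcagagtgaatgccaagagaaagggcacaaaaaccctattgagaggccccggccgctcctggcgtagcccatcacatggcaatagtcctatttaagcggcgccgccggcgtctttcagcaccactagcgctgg
Neurod1, NSC only, chr2:79456637-79456886, minus strand: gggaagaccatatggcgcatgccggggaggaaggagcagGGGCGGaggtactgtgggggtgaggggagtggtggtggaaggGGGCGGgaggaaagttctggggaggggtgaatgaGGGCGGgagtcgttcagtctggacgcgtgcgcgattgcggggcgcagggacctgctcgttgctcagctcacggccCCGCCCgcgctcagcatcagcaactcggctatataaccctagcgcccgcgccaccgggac
Neurog1, BTSC only, chr13:56252181-56252430, minus strand: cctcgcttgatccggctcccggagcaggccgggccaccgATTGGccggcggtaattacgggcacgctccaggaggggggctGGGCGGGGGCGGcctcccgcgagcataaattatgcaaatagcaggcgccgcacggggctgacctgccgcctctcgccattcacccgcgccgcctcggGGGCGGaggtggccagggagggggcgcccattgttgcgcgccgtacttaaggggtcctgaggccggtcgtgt
Rnf43, BTSC only, chr11:87662837-87663086, plus strand: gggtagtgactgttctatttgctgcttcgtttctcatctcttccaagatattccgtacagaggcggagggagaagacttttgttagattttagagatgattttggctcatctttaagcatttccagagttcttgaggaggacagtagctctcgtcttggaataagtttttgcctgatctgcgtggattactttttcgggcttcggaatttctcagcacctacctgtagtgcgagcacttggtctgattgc
Egfr, both lists, chr11:16751953-16752202, plus strand: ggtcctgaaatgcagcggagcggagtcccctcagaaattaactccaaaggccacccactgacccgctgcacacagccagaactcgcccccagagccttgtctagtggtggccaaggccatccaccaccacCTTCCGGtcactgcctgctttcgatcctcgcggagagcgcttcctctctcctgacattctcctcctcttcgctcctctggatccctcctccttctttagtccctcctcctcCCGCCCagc

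Of these runs, that of Egfr alone holds the ETS core, once, together with 1 GC box. Rab3b alone holds a TATA box, beside 4 GC boxes. Six3 holds 3 CCAAT boxes, Neurod1 holds 4 GC boxes, and Neurog1 holds 1 CCAAT box and 3 GC boxes, while Nkx2-2 holds 1 GC box. In Gsx1 and Rnf43 none of the 4 motifs was found in this window. C+G made up 71.2% of the bases at Neurog1, 67.6% at Neurod1 and 60.8% at Egfr, and 48.8% at Six3 and Rab3b and 44.4% at Rnf43. A match describes letters and is no evidence of binding.

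Taken whole, chromosomes 1 and 6 differed from the other chromosomes, in opposite directions. On chromosome 1 H3K27ac covered 4041910 bp in NSC against 6706341 bp in BTSC, a ratio of 1.66, with 1965 and 2662 peaks (ratio 1.35, 95% interval 1.28 to 1.44, for counting error only). On chromosome 6 the covered length in BTSC was 0.789 times that in NSC, with 1997 peaks in NSC and 1609 in BTSC. The 18 other chromosomes lay between 0.960 (chromosome 12) and 1.15 (chromosome 7). When each chromosome was divided into 10 parts of equal length, all 10 parts of chromosome 1 had more covered bp in BTSC (ratios 1.49 to 2.20) and all 10 of chromosome 6 had less (0.529 to 0.932). In the other chromosomes 123 of 180 parts were above 1 and 57 below, with a range of 0.620 to 1.69. Their 5th and 95th percentiles were 0.790 and 1.31, and most parts of chromosome 6 lay between these. Single parts elsewhere thus reached the values of chromosomes 1 and 6, but no other chromosome did as a whole. The authors' fold enrichment of peaks that overlap between lists had a median of 4.90 in NSC and 6.18 in BTSC on chromosome 1, and of 6.04 and 5.11 on chromosome 6. Copy number was not measured, and a gain or loss of chromosome cannot be told apart from a change of the mark; both chromosomes are therefore kept out of the counts below unless named. Of 2903 merged regions on chromosome 1, 248 (8.54%) were in NSC alone and 1033 (35.6%) in BTSC alone, and of 1622 regions of both lists 77 (4.75%) were at least 2 times as wide in NSC and 336 (20.7%) in BTSC. On chromosome 6 the shares of 2226 regions were 29.2% in NSC alone (649) and 11.9% in BTSC alone (264), and 183 (13.9%) and 74 (5.64%) of 1313 shared regions were wider in NSC and in BTSC.

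**Figure D1:**
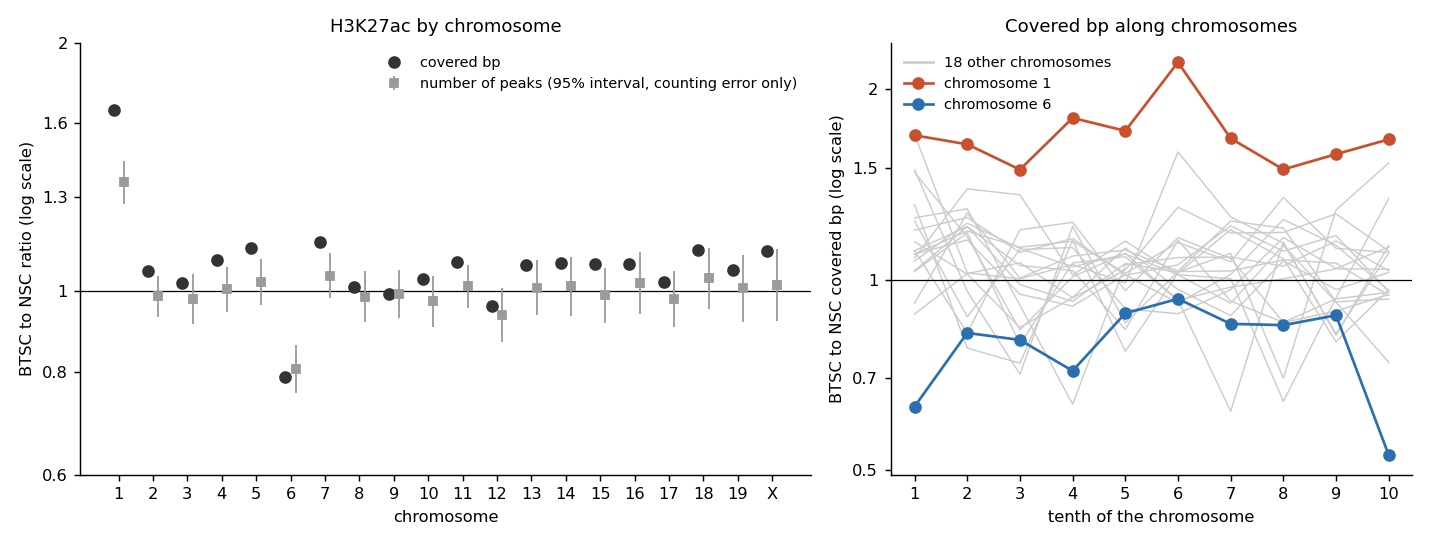
Left, ratio of BTSC to NSC for H3K27ac-covered bp (circles) and number of peaks (squares, 95% intervals for counting error only) on each chromosome, on a log axis. Right, ratio of covered bp along 10 parts of each chromosome, on a log axis; chromosome 1 lies between 1.49 and 2.20, chromosome 6 between 0.529 and 0.932, and grey lines show the 18 others.

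Outside these chromosomes nearly all wide peaks overlapped a peak of the other list, and narrow peaks did so less often. Peaks of both lists merged into 32715 regions, of which 21004 (64.2%) held peaks of both lists, 5681 were in NSC alone (17.4%) and 6030 in BTSC alone (18.4%). With a stricter q, set at a −log10 q of at least 5 in both lists, 2986 and 3292 regions were in 1 list alone. Median widths were 2134.5 bp for regions of both lists, 934 bp for NSC alone and 935 bp for BTSC alone. Among peaks of at least 10 kb, 401 of 404 in NSC and 544 of 544 in BTSC overlapped the other list, against 54.3% and 52.9% of peaks under 1 kb. A wide peak meets an overlap of 1 bp more easily, so these shares do not show that wide peaks had the same extent. With a reciprocal overlap of 50%, 62.0% of NSC and 62.0% of BTSC peaks overlapped, against 79.2% and 77.9% with 1 bp. Of the regions of both lists 1531 (7.29%) had at least 2 times the covered bp in NSC and 1820 (8.67%) in BTSC. The quartiles of the BTSC to NSC ratio over these regions were 0.822 and 1.29 around a median of 1.02.

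The balance between the cultures depended on the position relative to genes. H3K27ac within 1 kb of gene starts covered 14.9 Mb in NSC and 14.8 Mb in BTSC, a ratio of 0.992. Inside genes it covered 28.5 Mb in NSC and 33.8 Mb in BTSC, a ratio of 1.19. Between genes it covered 16.4 Mb in NSC and 15.1 Mb in BTSC, a ratio of 0.924. BTSC thus had more acetylated length within genes and less between them, with nearly the same length at starts. Taken chromosome by chromosome, the ratio inside genes was above 1 on 18 of 18 chromosomes (1.04 on chromosome 9 to 1.4 on the X chromosome), and the ratio between genes was below 1 on 16 of 18 (median 0.933).

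**Figure D2:**
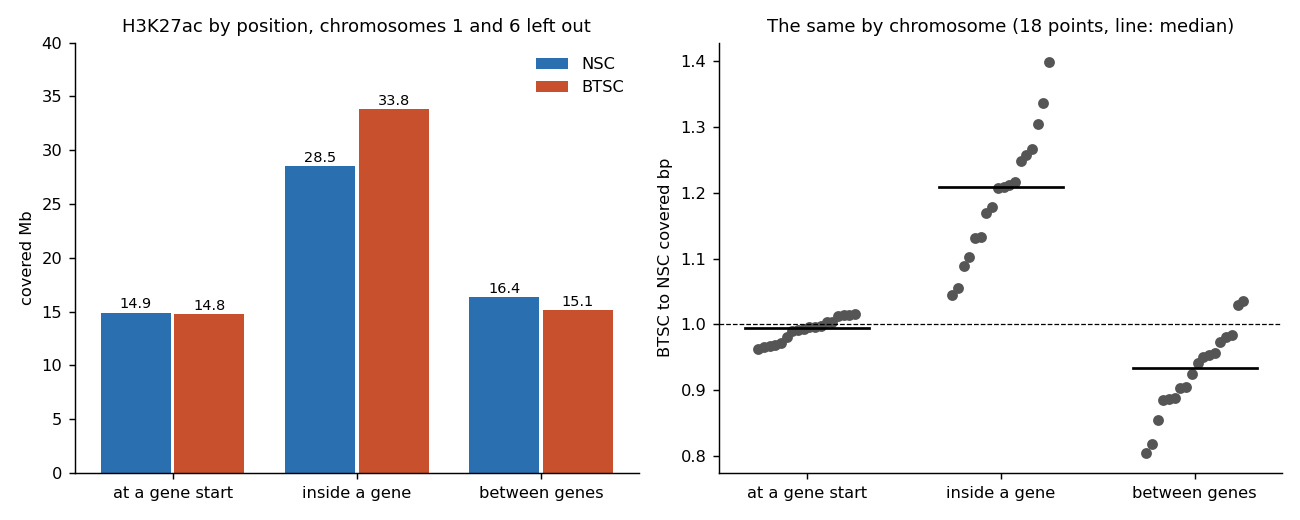
Left, Mb covered by H3K27ac within 1 kb of a gene start, elsewhere inside a gene and between genes, in NSC (blue) and BTSC (red), without chromosomes 1 and 6. Right, BTSC to NSC ratio of covered bp for each of 18 chromosomes, sorted by ratio, with a line at the median; points inside genes lie between 1.04 and 1.4, and those at gene starts between 0.963 and 1.02.

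Regions of 1 list alone were more numerous in BTSC inside genes and more numerous in NSC elsewhere. Inside genes 2596 regions were in NSC alone and 3870 in BTSC alone (ratio 1.49, 95% interval 1.42 to 1.57). Between genes 2576 were in NSC alone and 1780 in BTSC alone (0.691, 0.650 to 0.734). At gene starts these were 507 and 379 (0.748, 0.653 to 0.856), next to 9013 regions of both lists. With the stricter q the ratios were 1.51 inside genes, 0.852 between genes and 0.725 at starts, so the order of the last 2 positions turned; their intervals overlap above.

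Some long genes were acetylated over most of their length in BTSC. Of 8770 genes of at least 20 kb, 58 in NSC and 111 in BTSC had at least 50% of the gene covered, 49 of them in both. The genes named next were chosen after their values were seen. Rpn2, which encodes a subunit of the enzyme that attaches sugar chains to new proteins, was covered over 11.1% of its length in NSC and 89.2% in BTSC. For Lpcat1, an enzyme that remodels membrane phospholipids, the shares were 17.1% in NSC and 70.1% in BTSC. Gabbr1, a subunit of the metabotropic GABA receptor, had 11.1% in NSC and 66.1% in BTSC. Fads2, a fatty acid desaturase, had 46.8% in NSC and 87.1% in BTSC. In the opposite direction stood Hdac5, a histone deacetylase, with 57.9% in NSC and 22.7% in BTSC, and Clip2, a protein of microtubule ends, with 55.7% and 22.3%.

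Presence at gene starts was nearly the same in the cultures. Of 10701 protein-coding genes with a peak within 1 kb of a start in either list, 9861 had one in both, 481 (4.49%) in NSC only and 359 (3.35%) in BTSC only. Start peaks of 1 list alone were weak. Their median fold was 3.44 in NSC and 3.35 in BTSC, against 9.84 and 9.42 for starts in both lists. Only 235 of the NSC-only and 163 of the BTSC-only starts held a peak of −log10 q of at least 5. On chromosome 1, 11 genes (1.6%) were NSC only and 40 (5.82%) BTSC only of 687, and on chromosome 6, 36 (6.26%) and 16 (2.78%) of 575.

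Covered length around genes was compared next. Covered bp were counted within 25 kb either side of both gene ends, and a gene was called wider in a culture with at least 2000 bp there and at least 2 times the bp of the other; the window can hold peaks of neighbours and leaves out the middle of long genes. Of 11619 genes with 2000 bp in either list, 601 (5.17%) were wider in NSC and 992 (8.54%) in BTSC, or 261 and 314 at a ratio of 3. The median difference was 409 bp more in BTSC, the median ratio was 1.09, and 7168 of these genes (61.7%) had more covered bp in BTSC. After both lists were scaled to the same covered bp outside chromosomes 1 and 6, 716 genes were wider in NSC and 806 in BTSC, and 53.2% had more in BTSC. Scaled within each chromosome these counts were 732 and 800. Of the 992 genes wider in BTSC, 589 had a peak at the start in both lists, 103 in BTSC only and 293 in neither. Of the 601 wider in NSC these numbers were 253 in both, 130 in NSC only and 215 in neither. On chromosome 1, 17 of 763 genes (2.23%) were wider in NSC and 232 (30.4%) in BTSC. On chromosome 6, 101 of 643 (15.7%) were wider in NSC and 21 (3.27%) in BTSC. After covered bp were scaled to the same total on each chromosome, chromosome 1 had 59 genes wider in NSC and 65 in BTSC, and chromosome 6 had 58 and 49.

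On chromosomes 1 and 6 the leading genes were taken in equal number for each direction. They therefore cannot show whether leading genes followed the chromosome they lie on, and only some of them are given here. On chromosome 1, Trp53bp2, which binds p53 and promotes cell death, had 6557 bp in NSC and 38355 bp in BTSC. Mapkapk2, a kinase downstream of p38, had 8949 and 40638 bp, and Itpkb, a kinase of inositol phosphates, had 8656 and 37418 bp. Cfap45, a protein of cilia, went against the chromosome with 15330 bp in NSC and 4023 bp in BTSC. On chromosome 6, Ptpro, a receptor tyrosine phosphatase, had 14007 and 3334 bp, and Fbln2, a matrix protein, had 38126 and 18774 bp. Mgll, the lipase of monoacylglycerols, stood against that chromosome with 7105 bp in NSC and 21963 bp in BTSC.

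**Figure D3:**
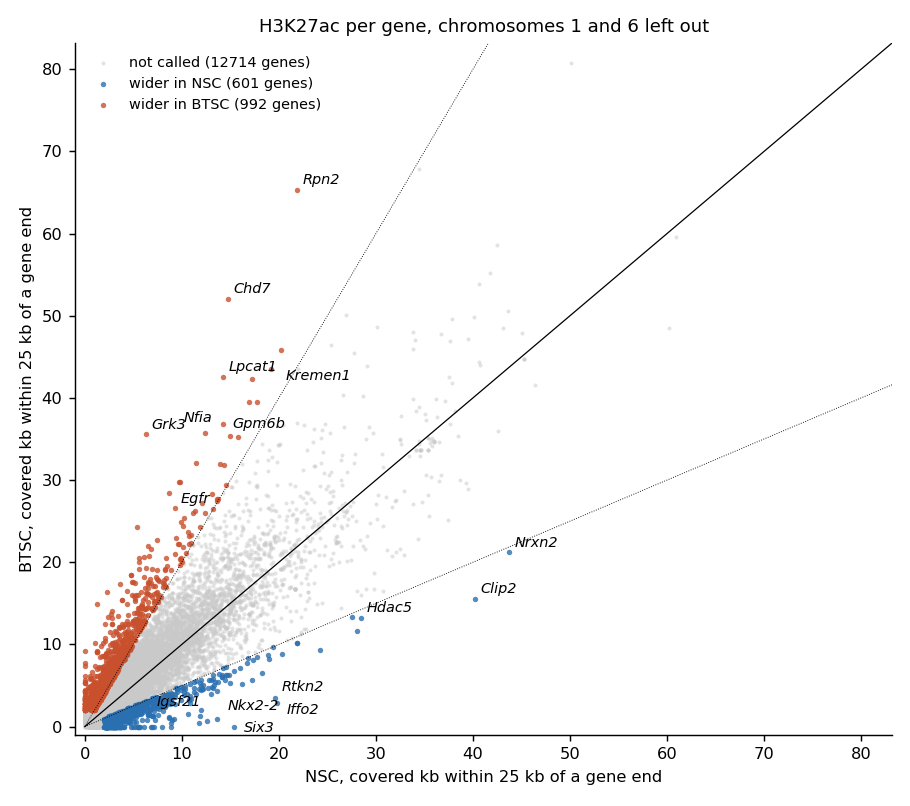
H3K27ac-covered kb around each gene in NSC (x axis) and BTSC (y axis), without chromosomes 1 and 6; the solid line marks equal values and dotted lines a ratio of 2. Red points are the 992 genes wider in BTSC, led by Rpn2 and Chd7, and blue points the 601 wider in NSC, with Six3 at 0 bp in BTSC.

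Several of the genes widest in BTSC encode regulators of glia and of growth. Chd7 (chromosome 4, 8690402 to 8868449), a chromatin remodeller needed by neural stem cells, had 14753 bp in NSC and 52074 bp in BTSC. Nfia (chromosome 4, 97578066 to 98118876), a nuclear factor I that promotes astrocyte formation, had 12377 bp in NSC and 35772 bp in BTSC. Gpm6b (X chromosome, 166238943 to 166389033), a proteolipid of glia and neurons, had 14252 bp in NSC and 36791 bp in BTSC. Over the gene body with 5 kb, Nfia had 76153 bp and Gpm6b 55662 bp more in BTSC, but neither was still called wider. Chd7, Nfia and Gpm6b had a peak at the start in both lists and TLX peaks in both cultures. The same direction was seen for Kremen1, a receptor for the Wnt inhibitor Dickkopf, with 19183 bp in NSC and 43539 bp in BTSC. Grk3, a kinase of G protein-coupled receptors, had 6343 bp in NSC and 35610 bp in BTSC, which was the highest ratio among the 10 leading genes of this direction. Plekhm2, an adaptor of lysosome transport, had 11484 bp in NSC against 32039 bp in BTSC.

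The genes widest in NSC included homeobox factors of the embryonic forebrain. Six3 (chromosome 17, 85613608 to 85626191), which patterns the anterior forebrain, lay under 1 NSC peak of 15419 bp with a fold of 17.1 and had no peak in its window in BTSC. This was also the widest region in NSC alone. Nkx2-2 (chromosome 2, 147176485 to 147195434), a ventral and oligodendrocyte factor, had 13645 bp in NSC against 878 bp in BTSC. The fold of its highest peak was 16.1 in NSC and 2.93 in BTSC. Igsf21, a synaptic adhesion protein, had 12628 bp in NSC and 717 bp in BTSC, and its start peak was in NSC only. Six3, Nkx2-2 and Igsf21 all had TLX peaks in NSC and none in BTSC. Among all genes with 2000 bp of H3K27ac, 35.8% had a TLX peak of NSC within 10 kb. Only 6.69% had one of BTSC, whose TLX list is shorter, so its absence is usual. Iffo2, a protein related to intermediate filaments, had 19850 bp in NSC and 2824 bp in BTSC, and Rtkn2 had 19579 and 3434 bp. Both kept a start peak in both lists. Col5a3, a fibrillar collagen, had 28073 bp in NSC and 11694 bp in BTSC. Nrxn2, a presynaptic neurexin, had 43711 bp in NSC and 21242 bp in BTSC, a ratio of 2.06, and was no longer called wider with a stricter q or with a window of 10 kb.

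**Figure D4:**
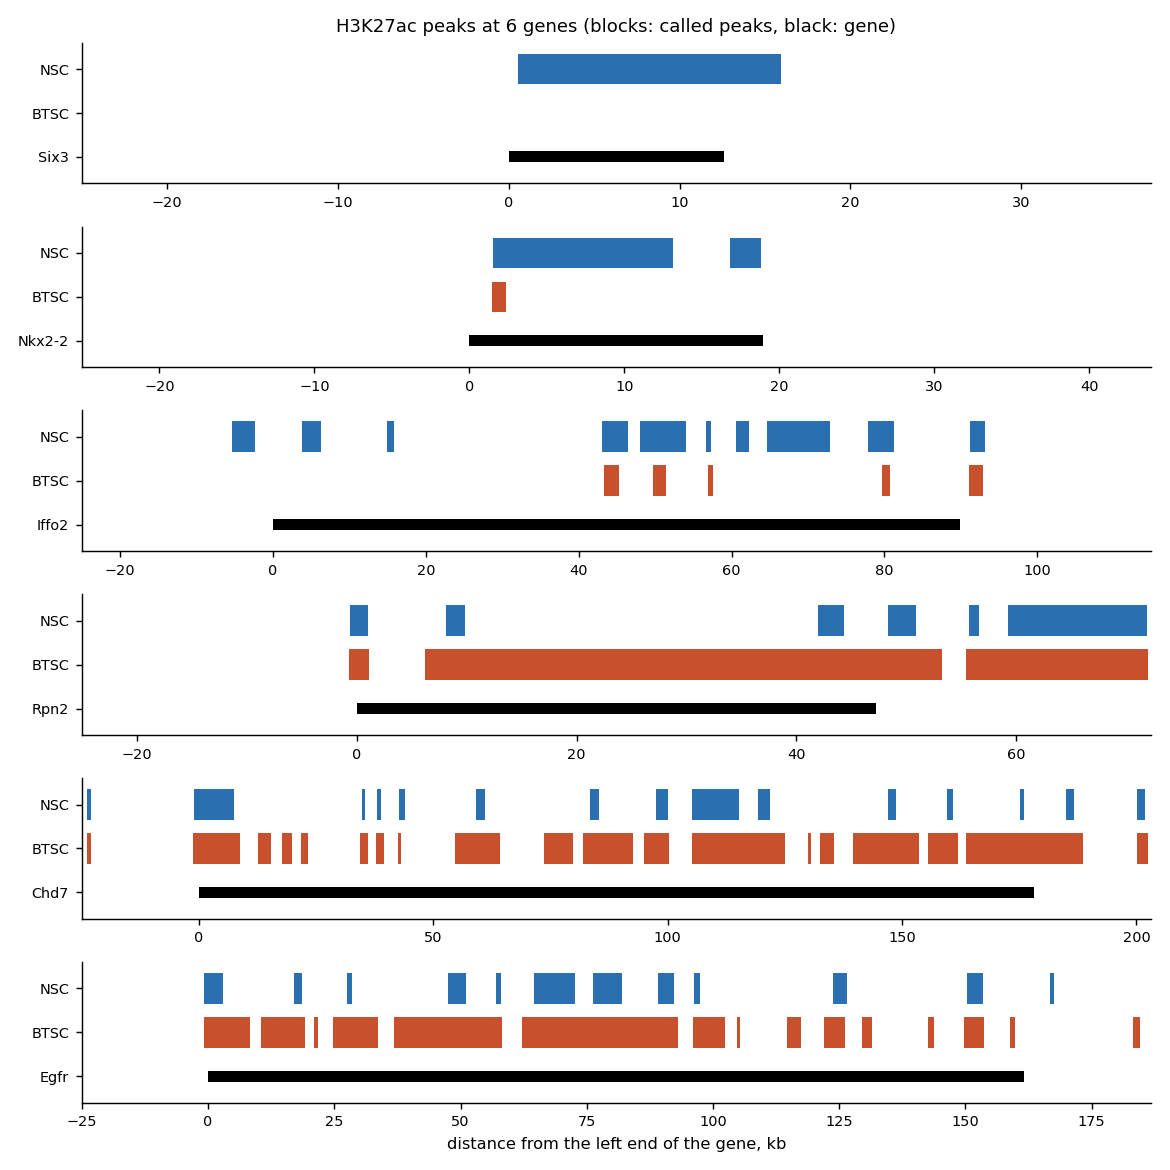
Called H3K27ac peaks in NSC (blue) and BTSC (red) at 6 genes, as distance in kb from the left end of the gene (black bar). Six3 has 1 wide peak in NSC and none in BTSC, and at Rpn2 a single BTSC peak spans a stretch that holds 3 separate peaks in NSC.

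The regions of both lists with the largest difference were 1 long peak in the higher culture, in either direction; they were chosen for that difference. A BTSC peak of 47027 bp over Rpn2 and Ghrh covered a stretch in which NSC had 3 peaks with 6763 bp. The region over Coro2b, an actin regulator of neurons, was 1 BTSC peak of 31280 bp and 6 NSC peaks with 10207 bp. Inside Gpm6b 1 BTSC peak stood against 5 NSC peaks (32235 and 14865 bp). In Dscaml1, an adhesion protein of neurons, 1 NSC peak of 31683 bp stood against 4 BTSC peaks with 15514 bp. In Npas3, a transcription factor of neural stem cells, the NSC peak had 39054 bp and 4 BTSC peaks had 24865 bp.

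The widest regions of 1 list alone lay in genes of varied function and between genes. The widest in BTSC alone were 9334 bp inside Nfib, a nuclear factor I with roles in glia, and 9207 bp at Wnt7b, a ligand of the canonical Wnt pathway, where the folds were 2.5 and 4.06. Rfx4, a factor of neural tube patterning and cilia, had a region of 7856 bp. In NSC alone, stretches after Six3 lay inside Rab3b, a protein of synaptic vesicles (14194 bp), and inside Slc10a7 (10517 bp). A region of 7714 bp between genes on chromosome 15, 207523 bp from the nearest start (Alg10b), had the highest fold of the 10 widest NSC-alone regions, at 19.1.

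Genes of forebrain patterning and neuronal fate were split between the cultures. Among ventral forebrain and interneuron factors, 6 of 7 genes with 2000 bp in either list had less in BTSC. Gsx1, which specifies the ventral telencephalon, had 3153 bp in NSC and 0 bp in BTSC. In the wider forebrain list 8 genes had more covered bp in BTSC and 7 in NSC, so it had no common direction. Emx2, a dorsal forebrain factor, had 11245 bp in NSC and 4706 bp in BTSC, and Lhx2, a cortical selector gene, had 2426 and 5820 bp. Proneural factors of the basic helix-loop-helix family, which drive progenitors towards neurons, exchanged members. Neurod1 had 3140 bp in NSC and 0 bp in BTSC. Neurog2 had 0 bp in NSC and 2926 bp in BTSC. Neurog1 had 1904 bp in NSC and 4728 bp in BTSC, with the start peak in BTSC only.

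Neuronal genes had more start peaks in NSC, while their covered length had no common direction. Of 12 neuron genes with a start peak in either list 7 were NSC only and 0 BTSC only, beside 5 in both, against 4.49% and 3.35% of all genes. Of 10 with 2000 bp in either list 6 had more in BTSC (median difference 153.5 bp), or 3 of 10 after scaling to the same covered bp. The 7 genes with a start peak in NSC only were Dcx, Elavl3, Syt1, Gap43, Nefl, Nefm and Myt1l. These serve migration, RNA processing, synaptic release, axon growth, the axonal skeleton and neuronal identity. The peaks were short, with 627 bp at Dcx, 636 bp at Syt1 and 454 bp at Nefl and 0 bp in BTSC for each. Gap43, a protein of growing axons, was the 1 member wider in NSC (5504 bp in NSC, 1633 bp in BTSC). Slc17a7, a glutamate transporter of synaptic vesicles, was wider in BTSC (1815 and 4547 bp). Elavl3 had 4666 bp in NSC and 5910 bp in BTSC despite its NSC-only start peak. With a stricter q in both lists 3 neuron genes were NSC only, and 2 when, in addition, no peak of any q was allowed in BTSC.

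Axon guidance genes had less H3K27ac in BTSC at most members. Of 23 members with 2000 bp in either list 17 had less in BTSC (4449 of 11619 among all genes; 18 after scaling), 8 were wider in NSC and 1 was wider in BTSC. Their median difference was −1035 bp in BTSC, against 409 bp for all genes. Among ligands, Slit1 had 4955 bp in NSC and 1453 bp in BTSC, Efna5, an ephrin, had 3401 and 0 bp, and Sema5b, a semaphorin, had 4423 and 2025 bp. Among receptors, Dcc, which binds netrin, had 5572 bp in NSC and 0 bp in BTSC, and Epha7, an ephrin receptor, had 3213 and 0 bp. Robo1, the Slit receptor, had 2025 bp in NSC and 0 bp in BTSC. At starts, Slit2, Robo1, Epha7, Efna5, Sema3c and Dcc were NSC only and Sema5a, a further semaphorin, BTSC only. For Dcc, on chromosome 18, the peak lay within 1 kb of either gene end, as starts were not available for that chromosome. Sema4d was the member wider in BTSC (1340 and 3209 bp). With a stricter q 5 members were wider in NSC and 0 in BTSC, and with a window of 10 kb 4 and 0. On chromosome 1, left out of these counts, Epha4 had 3895 bp in NSC and 19603 bp in BTSC.

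Ion channel genes had less in BTSC at most members, and receptor genes of synapses went both ways. Of 15 potassium and calcium channel genes 11 had less in BTSC (38.3% of all genes), before and after scaling, with Kcnq3 (7391 bp in NSC, 2240 bp in BTSC) and Cacna1g (3630 and 0 bp) wider in NSC. Kcnip3, which encodes a calcium-binding partner of potassium channels, had 35486 and 25691 bp. Among glutamate and GABA receptor genes 9 had more and 10 had less in BTSC. Gria4, an AMPA receptor subunit, had 2081 bp in NSC and 0 bp in BTSC. Gabbr1 had 5564 and 20565 bp.

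Most astrocyte genes, like most of all genes, had more H3K27ac in BTSC. Of 16 members with 2000 bp in either list 12 had more in BTSC (61.7% of all genes), 5 were wider in BTSC (8.54% of all genes) and 0 in NSC. Their median difference was 3057.5 bp, against 409 bp for all genes. After scaling to the same covered bp 10 of 16 (62.5%) had more in BTSC, against 53.2% of all genes. Neural stem cell markers had the same count, 12 of 16 with more in BTSC and 10 after scaling, with a median difference of 775.5 bp and 1 member wider. Gfap, the intermediate filament of astrocytes, had 3809 bp in NSC and 10280 bp in BTSC, with start peaks in both. Aqp4, the water channel of astrocyte endfeet, had 3423 bp in NSC and 13428 bp in BTSC. Cst3, a secreted protease inhibitor, had 7467 and 22651 bp, and Slc4a4, a bicarbonate transporter, had 924 and 3888 bp. Ntsr2, a neurotensin receptor, had 9815 bp in NSC and 20351 bp in BTSC and was the 1 member with a start peak in BTSC only. With a stricter q 3 members were wider in BTSC, and with a window of 10 kb 2. The part of cells already differentiating was not tested.

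**Figure D5:**
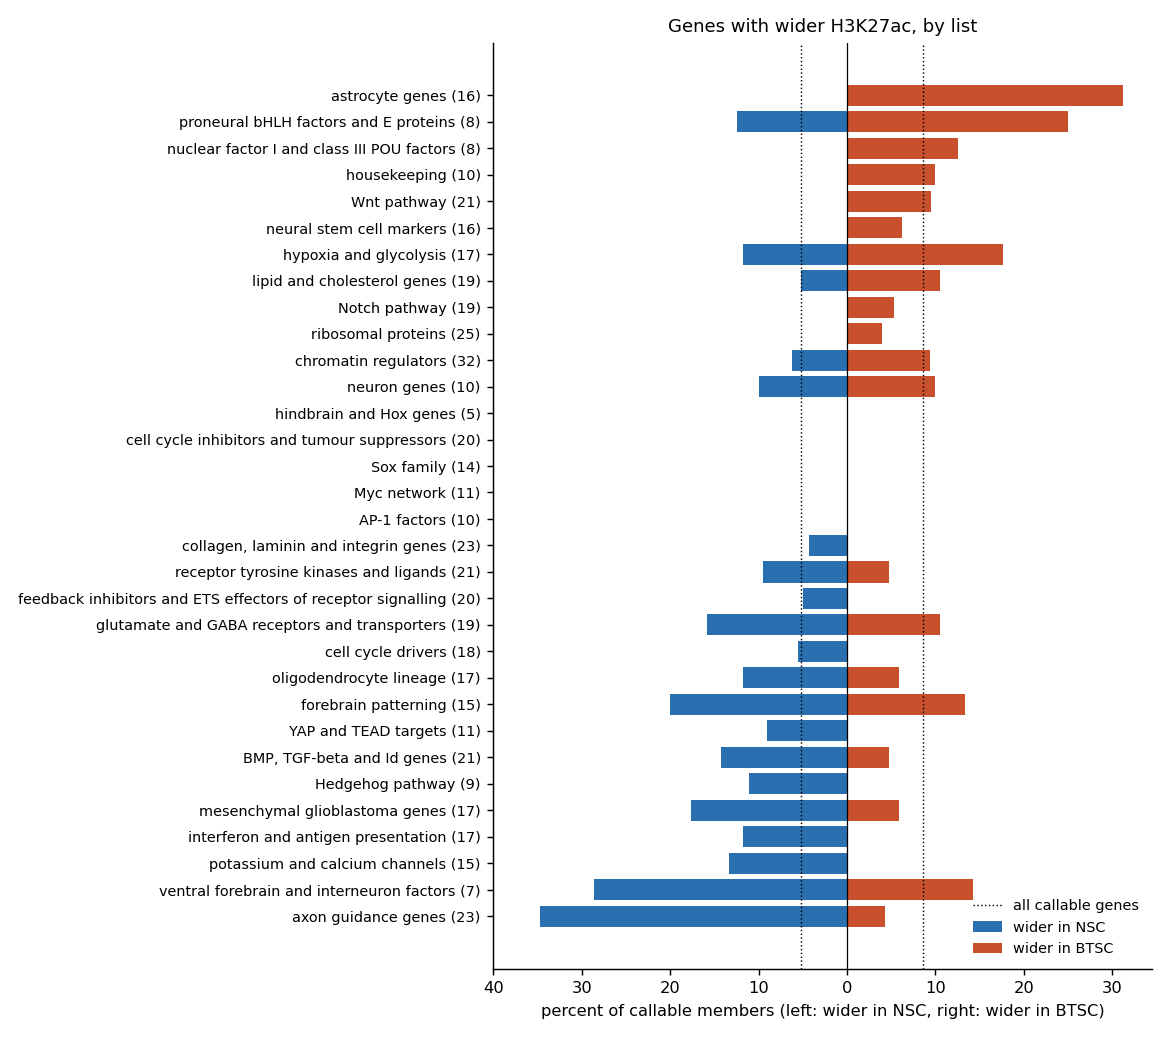
Percent of each list's genes that were wider in NSC (blue, to the left) or in BTSC (red, to the right); the number of genes with 2000 bp in either list stands in brackets, and chromosomes 1 and 6 are left out. Dotted lines mark 5.17% and 8.54%, the shares of all such genes; of the lists drawn, axon guidance genes reach furthest to the left and astrocyte genes furthest to the right.

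Nuclear factor I and class III POU genes leaned the same way as the astrocyte genes. Of 8 members 7 had more in BTSC, with a median difference of 3500.5 bp against 409 bp for all genes, although Nfia alone was called wider. Nfib had 26961 bp in NSC and 50128 bp in BTSC, and Nfix 41774 and 55215 bp. In the oligodendrocyte lineage 10 members had more in BTSC and 7 less, which turned to 5 and 12 after scaling. Ugt8a, which makes the myelin lipid galactocerebroside, had 2888 bp in NSC and 0 bp in BTSC. Sox10 was level, at 34447 bp in NSC and 34452 bp in BTSC, and so was Pdgfra, at 24825 and 24917 bp. The neural stem cell marker that was wider was Nr2e1, the gene of TLX, with 3071 bp in NSC and 9782 bp in BTSC. Sox9, a factor of neural stem cells and astrocytes, had 10502 and 14429 bp and Slc1a3, a glutamate transporter, 18502 and 22157 bp. Sox2 had 36733 and 30562 bp, and Nes, the intermediate filament nestin, 28697 and 21919 bp, and these were among the 4 of 16 with less in BTSC.

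Receptor signalling genes differed by single members. Egfr, the receptor of EGF, was the 1 receptor tyrosine kinase gene wider in BTSC (9267 bp in NSC, 26599 bp in BTSC). The ligand genes Pdgfa (5247 and 2613 bp) and Vegfa (7249 and 3443 bp) were wider in NSC. Of 21 Wnt genes 17 had more in BTSC (15 after scaling), against 61.7% of all genes, and 2 were wider there, a share near the 8.54% of all genes. Wnt7b had 27731 bp in NSC and 45486 bp in BTSC, and Axin2, a feedback inhibitor, 37888 and 49654 bp. Rnf43, a ubiquitin ligase that removes Wnt receptors, had 2502 and 6364 bp, and Wnt4 1924 and 6111 bp. Of 19 Notch genes 13 had more in BTSC, a share near that of all genes, and 1 was wider there, the target repressor Heyl (4101 and 9166 bp). In the BMP and TGF-beta list, Bmp7, a ligand, had 14678 bp in NSC and 6225 bp in BTSC, and Smad3, a signal transducer, 9333 and 3937 bp. Tgfbr2, the TGF-beta receptor, had 2120 and 10821 bp. Cdon, a co-receptor of Hedgehog, had 6743 bp in NSC and 1380 bp in BTSC.

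Mesenchymal and matrix genes had less in BTSC in part. Of 17 mesenchymal glioblastoma genes 10 had less in BTSC, or 11 after scaling, against 38.3% and 46.8% of all genes. Of them 3 were wider in NSC (5.17% of all genes) and 1 in BTSC (8.54%). Those wider in NSC were Tgfbi (6476 bp in NSC, 1444 bp in BTSC), Mmp14 (8744 and 2771 bp) and Mmp2 (8470 and 3789 bp), which act in the extracellular matrix. Runx1, a transcription factor, had 0 bp in NSC and 5419 bp in BTSC. Of 23 collagen, laminin and integrin genes 14 had less in BTSC, or 16 after scaling, and 1 was wider in NSC. Of 11 genes of the YAP and TEAD list 9 had more in BTSC, before and after scaling (61.7% and 53.2% of all genes), among them Amotl2 (11813 and 18697 bp), while Ajuba was wider in NSC (8557 and 3837 bp). Of 32 chromatin regulators 3 were wider in BTSC and 2 in NSC, shares near the 8.54% and 5.17% of all genes. Those wider in BTSC were Chd7, Arid1b (5442 and 12245 bp) and Kdm1a (4553 and 9415 bp). Hdac5 (28446 and 13254 bp) and Bcl11a (7971 and 0 bp) were wider in NSC. No member was called wider among 20 cell cycle inhibitors and tumour suppressors, 14 Sox genes, 11 genes of the Myc network and 10 AP-1 genes. Among all genes 5.17% were wider in NSC and 8.54% in BTSC.

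Promoter sequence differed between the classes of genes. Of 17492 genes with a RefSeq promoter, 11.9% held the ETS core in the 250 bases before to 50 after the start. The share was 20.5% (95% interval 19.6 to 21.4) of 7975 genes with H3K27ac at the start in both lists, 5.19% (3.10 to 8.07) of 347 NSC-only genes, 2.76% (1.12 to 5.60) of 254 BTSC-only genes and 3.40% of genes with neither. With a stricter q it was 11.9% of NSC-only and 7.49% of BTSC-only genes. Where both lists had a start peak, the core was in 11.2% (7.17 to 16.5) of 196 genes wider in NSC and in 20.7% (17.2 to 24.6) of 478 wider in BTSC, with a median of 22 CpG in each. The SP1 box GGGCGG was in 67.6% of the promoters of both lists, 55.9% and 50.8% of those of NSC and BTSC only, and 46.3% of all. Median numbers of CpG were 22 in both, 15 in NSC only, 10 in BTSC only and 3 in neither. The part of base composition in these shares was not tested. CCAAT was in 39.8%, 40.3% and 40.2% of the promoters of both lists, NSC only and BTSC only, and in 39.2% of all. TATAAA was in 6.28%, 10.7% and 8.66%, and in 13.3% of all promoters.

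TLX binding was a readout that the H3K27ac calls had not used. TLX peaks of NSC lay within 10 kb of 35.8% (34.9 to 36.7) of the 11619 genes with 2000 bp of H3K27ac, of 34.4% (30.6 to 38.4) of the genes wider in NSC and of 25.1% (22.4 to 27.9) of those wider in BTSC. TLX peaks of BTSC lay near 6.69% of all these genes, 3.83% (2.44 to 5.69) of those wider in NSC and 8.27% (6.63 to 10.2) of those wider in BTSC. The last 2 shares were 5.95% and 7.71% with a stricter q, a smaller gap. In each culture's TLX list the genes wider in the other culture thus had the lower share. The median covered length in the higher culture was 4302 bp for genes wider in NSC and 6195.5 bp for genes wider in BTSC, and its part in these shares was not tested. The TLX libraries came from cells that carried tagged TLX, 1 library per culture, and the 2 TLX lists differed in length (7458 and 1436 peaks), so their shares are not compared with each other.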

How the data were processed

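The data used were the H3K27ac peak lists of NSC and BTSC, each called by the authors on 1 library, and the TLX peak lists as a separate readout. The submitters' processing notes name Bowtie, ChIPseeker, bcl2fastq 2.17.1.14 and the build mm10; the peak caller is not given in the sources used here. Each deposited peak carries a linear fold ratio over background and, on a −log10 scale, its p-value and its q-value. The deposited score in nearly all of the deposited H3K27ac lines is 10 times the −log10 q cut to a whole number. These are the authors' values and were used only to describe or filter peaks.

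Peaks overlapped when they shared 1 bp. Genes were 21887 protein-coding genes of RefSeq GRCm38.p6. A gene's start came from the RefSeq promoter table for 17492 genes, and either gene end was used for 4395. Of the chromosome 18 genes 0 had a start there, so all of them were placed by their ends. Exons were not distinguished. Regions whose midpoint lay in a gene counted as inside it unless they were within 1 kb of a start. Intervals of shares are exact Clopper-Pearson and those of ratios exact conditional binomial intervals at 95%. They cover counting error only, and interval arithmetic was tested on simulated data. Python 3.11.15, numpy 2.4.6, pandas 2.3.3 and scipy 1.17.1 were used.

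The members, the 37 gene lists (772 entries, 771 matched) and the rules were chosen with earlier results of these data known. Named genes are the 10 with the largest difference in covered bp per direction (4 each on chromosomes 1 and 6), the 10 widest regions of 1 list and the 10 largest differences of shared regions, list members called in 1 culture, and the 3 largest differences of a list. Alternatives were a stricter q, equal numbers of peaks, reciprocal overlap, joined peaks, other windows, scaled bp and a ratio of 3. Some named genes are not reported here.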

Additional observations from a re-analysis of the deposited data

How the results depend on the processing

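Depth is unknown, each culture has 1 library, and no value has a replicate error. No paired analysis was possible because each group holds 1 library and the labels give no replicate numbers. Joining peaks within 1 kb changed nothing, since the smallest gap within a list was 1629 bp in NSC and 1665 bp in BTSC. Joining within 3 kb, added after seeing the data, kept each recomputed result within 1.5 times. Cutting to equal numbers of peaks also kept every count within 1.5 times.

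With a stricter q, 83.0% of NSC and 81.4% of BTSC peaks overlapped the other list, against 79.2% and 77.9%, and with a reciprocal overlap of 50% these were 62.0% and 62.0%. The ratio of peak numbers became 1.21 on chromosome 1 and 0.892 on chromosome 6. Regions alone became 2986 in NSC and 3292 in BTSC, and regions of both lists that were wider became 610 and 778, or 535 and 647 at a ratio of 3. The ratio of regions alone between genes became 0.852 and that of covered bp between genes 0.961. Neuron genes in NSC only became 3; axon guidance genes wider became 5 in NSC and 0 in BTSC, and astrocyte genes wider in BTSC 3. TLX of BTSC lay at 5.95% of genes wider in NSC, and the ETS core was in 11.9% of NSC-only and 7.49% of BTSC-only promoters.

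At a ratio of 3, genes wider in NSC and BTSC became 261 and 314, on chromosome 1 they became 11 and 89, and on chromosome 6 they became 49 and 9. Scaled to the same covered bp outside chromosomes 1 and 6, genes wider elsewhere were 716 and 806, and of the lists neuron genes, oligodendrocyte genes, forebrain patterning genes, Sox genes and chromatin regulators turned from most members with more in BTSC to most with less. Scaled within each chromosome, counts became 59 and 65 on chromosome 1 and 58 and 49 on chromosome 6. With a window of 2.5 kb at starts, 1 neuron gene and 2 astrocyte genes were BTSC only. With a window of 10 kb at gene ends, added after seeing the data for the lists, neuron genes wider in BTSC became 0, axon guidance genes 4 in NSC and 0 in BTSC, and astrocyte genes 2 in BTSC. Where a start needed a peak of the stricter q in 1 culture and no peak of any q in the other, 235 genes were NSC only and 163 BTSC only, with 2 neuron genes NSC only. Of 252 values for 36 named genes, 209 kept direction and call, 39 kept direction alone, and Stra8 was at a difference of 0 bp with the gene body and 5 kb. The other 3 turned: Hjurp (738 bp more in BTSC with a stricter q), Brinp3 (2293 bp more in BTSC with the gene body and 5 kb) and Hoxa9 (−9 bp with the gene body and 5 kb). The cause of these changes was not tested.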

Other observations

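Genes of metabolism and of the response to low oxygen were described above only in part. Adm, which encodes the vasodilator peptide adrenomedullin, had 10141 bp in NSC and 24373 bp in BTSC. Egln3, a prolyl hydroxylase that senses oxygen, had 4534 and 10489 bp, and Pfkfb3, an activator of glycolysis, had 3754 and 7731 bp. Ndrg1, a gene induced by low oxygen, went the opposite way with 2597 bp in NSC against 572 bp in BTSC. The list had 3 of 17 genes wider in BTSC (8.54% of all genes) and 2 wider in NSC (5.17% of all genes). Of the 17 genes 10 had more in BTSC, a share near the 61.7% of all genes. In the lipid list Abcg1, a cholesterol exporter, had 5071 bp in NSC and 1417 bp in BTSC.

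Windows of 1 Mb, chosen after the data had been seen, were compared as well. Outside chromosomes 1 and 6, 1039 windows had at least 40 kb of H3K27ac in both lists together. Of these 644 had more covered bp in BTSC, and 22 had at least 2 times the covered bp in BTSC and 25 in NSC. The 5th and 95th percentiles of the BTSC to NSC ratio were 0.598 and 1.72. The windows named next were among those with the largest differences. The window that holds Chd7 on chromosome 4 had 78813 bp in NSC and 199461 bp in BTSC. That of Nfib had 78120 and 170513 bp, and that of Egfr 64757 and 136078 bp. On chromosome 15 the window of Cpne8, Alg10b and Kif21a had 45602 bp in NSC and 5745 bp in BTSC (NSC to BTSC ratio 7.94). A window on chromosome 3 with no protein-coding gene had 81254 and 46443 bp. The window of Sox2 had 118651 bp in NSC and 77317 bp in BTSC, while around the gene itself the values were 36733 and 30562 bp.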
